A study of Mus musculus with 12 samples.

Results

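Respiratory complex I, the NADH dehydrogenase of the inner mitochondrial membrane, was described here through the mRNA of its nuclear-encoded subunits in mouse hippocampus. A gene was counted as a subunit when its symbol was Nduf followed by a, b, c, s or v and a number, or Ndufab1. Assembly factors (Ndufaf genes), the paralogue Ndufa4l2 and symbols annotated as pseudogenes in GENCODE (Ndufab1-ps, Ndufa11b, Ndufs6b and Ndufb4c) were left out. Sources differ for Ndufb4c, which RefSeq gives as protein-coding. The rule found 37 genes among the 24590 listed in any mouse, and all 37 were among the 14328 genes that reached a mean of 1 FPKM and were tested. FPKM scales the fragments of a gene by its transcript length and by the size of the library. It keeps no read total, so the depth behind each value is unknown.

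The study compared hippocampal RNA of knockout and wild-type mice of a pair of Shank2 lines. The Shank2 protein is a scaffold that anchors receptors and signalling proteins under excitatory synapses. In one line exons 6 and 7 were deleted (the exon 6-7 line) and in the other exon 7 (the exon 7 line), and each line gave 3 wild-type and 3 knockout mice, 12 in all. The labels give the strain of all 12 as mixed C57BL/6J and C57BL/6N and describe the mice of the behavioural tests as males of 8 to 15 weeks, knockouts with wild-type littermates. No Cre, transgene or drug is named in the labels. Mice are called by genotype and number: WT778, WT809 and WT865 against KO776, KO777 and KO864 in the exon 6-7 line, and WT628, WT993 and WT999 against KO969, KO990 and KO994 in the exon 7 line. Lists of values below keep this order.

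Complex I takes electrons from NADH, passes them through a flavin and a chain of iron-sulfur clusters to ubiquinone, and pumps protons across the inner membrane. It is built from subunits of both genomes: the mitochondrial genome encodes the central proton-pumping subunits, and nuclear genes encode the electron-carrying core of the matrix arm and a shell of accessory subunits around both arms. In the brain, which relies on oxidative phosphorylation, this enzyme is a main entry point of electrons into the respiratory chain.

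Before the subunits themselves, some properties of the libraries bear on their values. Shank2 mRNA was at 13.8 to 14.9 scaled FPKM in the wild-type and 6.15 to 7.02 in the knockout mice of the exon 6-7 line (log2 fold change −1.04, limma adjusted p = 0.00972), which matches those labels. Mice of the exon 7 line had 36.04 to 44.1 (wild type) and 33.2 to 44.6 (knockout), so that a gene-level value does not check those labels. In 4 libraries (WT778, KO776, WT628 and KO969, called set A) the gene ENSMUSG00000095746 was not listed, while the other 8 (set B) listed it, and each group holds 1 mouse of set A. Median-of-ratios scaling used factors from 0.919 to 1.07. All 10 hippocampal neuron markers checked (among them Prox1, Camk2a and Snap25) were listed in every group. Nuclear complex I transcripts made up 1.21 to 1.35% of all FPKM in mice with or without the exon 6-7 deletion, and 0.559 to 0.651% in mice of the exon 7 line.

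Within each group the subunits spanned a wide range of levels. The mean level of a subunit, per transcript length, had a median of 174 scaled FPKM over the 37 genes in the exon 6-7 wild type (range 12.5 to 646), 153 in the exon 6-7 knockout, 69.2 in the exon 7 wild type (4.89 to 259) and 68.3 in the exon 7 knockout. Ndufa4, which the rule includes by its symbol and which is now known as a subunit of cytochrome c oxidase, was the highest in every group. Ndufa4 measured 533, 765 and 638 scaled FPKM in wild types of the exon 6-7 line, and 514, 644 and 629 in their knockout counterparts. For the exon 7 line these values were 226, 269 and 280.1, then 233, 276 and 298. The lines did not overlap, and within each line the ranges of the genotypes did. Ndufb9, a subunit of the distal membrane arm with an LYR motif, was the second in 3 groups and the third in the exon 7 wild type, where Ndufs5 was above it.

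The lowest subunits were Ndufb4 of the distal membrane arm and Ndufa11, a membrane subunit related to the TIM17 family. Levels of Ndufb4 came to 11.4, 14.6 and 11.6 scaled FPKM (exon 6-7 wild type) and 10.3, 12.8 and 11.3 (exon 6-7 knockout). Those of the exon 7 mice came to 5.70, 4.37 and 4.59 without the deletion and 5.01, 4.27 and 4.21 with it. The scaled FPKM of Ndufa11 in the exon 6-7 line was 40.6, 51.04 and 38.6 for wild types and 35.4, 40.8 and 38.8 for knockouts. The exon 7 line gave 14.1, 14.1 and 13.7 (wild type) and 14.1, 14.6 and 18.2 (knockout). Both genes kept the last places in the order in all 4 groups, and for both all 6 mice of the exon 7 line lay below all 6 of the exon 6-7 line. Ndufb4 shares 36.98% of its 50-base stretches with Ndufb4c, which was listed at no more than 0.518 scaled FPKM in any mouse, and the sources used here do not say how reads that fit both were assigned.

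By role, the medians were close. Core subunits, which carry the flavin and the iron-sulfur clusters, had a median level of 149 in the exon 6-7 and 64.4 scaled FPKM in the exon 7 wild type (n = 7). The same medians were 180.1 and 61.3 for 9 accessory subunits of the matrix arm, 174 and 69.2 for 9 subunits of the proximal membrane arm, and 190.0 and 72.3 for 10 of the distal membrane arm. Ndufab1, the mitochondrial acyl carrier protein, which also serves fatty acid synthesis, was at 94.1 ± 8.14 and 35.5 ± 1.38 (SD, n = 3 each). The plot of levels by mouse gives the values.

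**Figure D1:**
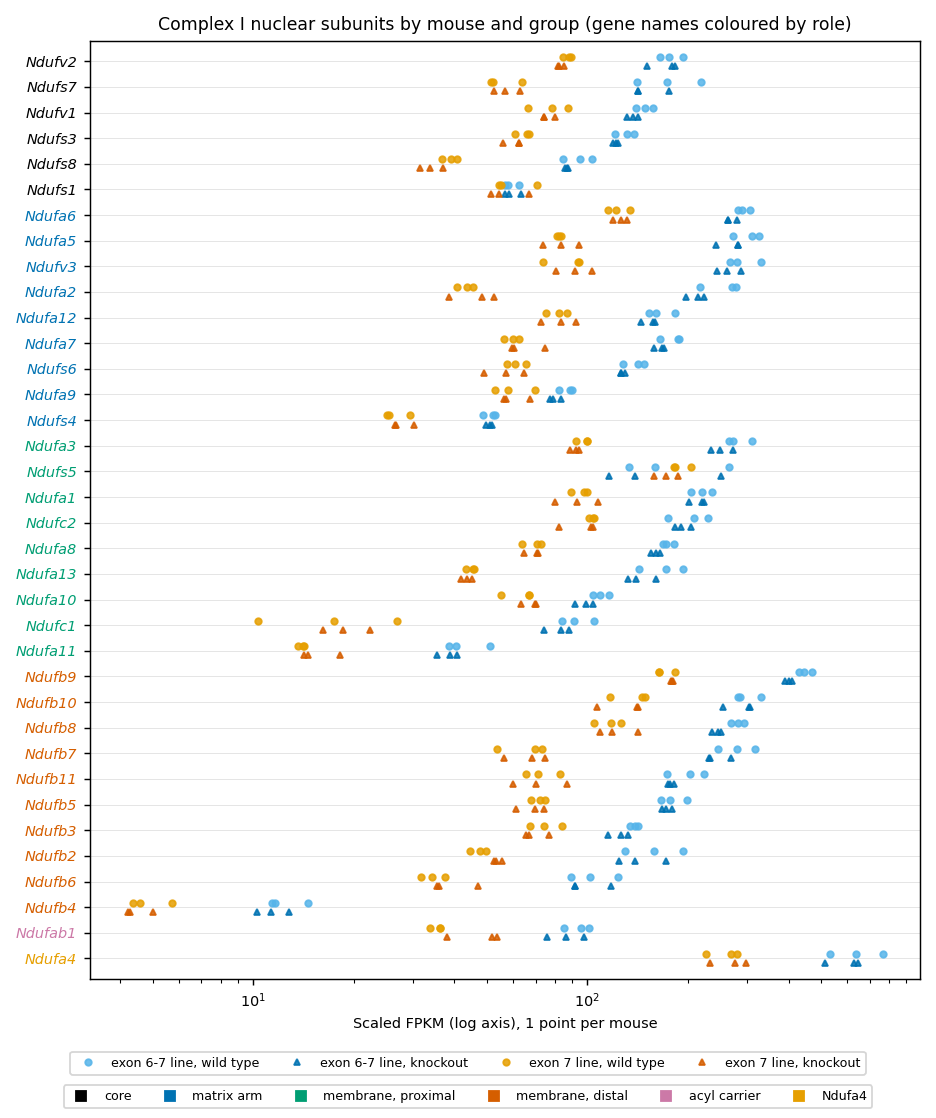
Scaled FPKM on a log axis of each of 36 subunits, 1 point per mouse, with circles for wild-type and triangles for knockout mice, blue for the exon 6-7 line and orange for the exon 7 line, and gene names coloured by role. The blue points lie to the right of the orange ones for all subunits shown except Ndufs1 and Ndufs5, from about 4.50 for Ndufb4 to 646 for Ndufa4 (lowest and highest group means).

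Spread between mice of one group was small for most subunits. The coefficient of variation between the 3 mice of a group had a median over subunits of 9.13% in the exon 6-7 wild type, 6.09% in its knockout, 6.82% in the exon 7 wild type and 10.1% in its knockout. Ndufs5 varied most in both groups of the exon 6-7 line (37.8 and 43.0%), Ndufc1, a small membrane subunit, in the exon 7 wild type (45.7%), and Ndufb11 of the distal arm in the exon 7 knockout (19.0%). Ndufc1 was at 26.9, 10.3 and 17.5 in the exon 7 wild-type mice, with WT628 highest and WT993 lowest. These genes were singled out after their values were seen. The order of the 37 levels was nearly the same in wild-type and knockout mice (Spearman's rho across 37 genes 0.996 for the exon 6-7 mice and 0.990 for the exon 7 mice) and differed more between lines (0.778 to 0.804). These correlations are across genes, which share libraries and scaling and are not independent replicates.

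The core subunits are given first, from the site of NADH oxidation on. Ndufv1 binds the flavin that accepts electrons from NADH. Ndufv1 measured 149, 157 and 140.3 scaled FPKM in wild types of the exon 6-7 line, and 131, 137 and 142 in their knockout counterparts. For the exon 7 line these values were 66.6, 87.4 and 78.5, then 74.2, 74.3 and 80.1. All exon 7 mice lay below all exon 6-7 mice, while within a line the genotypes overlapped. Ndufv2 holds an iron-sulfur cluster next to the flavin. Levels of Ndufv2 came to 165, 193 and 176 scaled FPKM (exon 6-7 wild type) and 150.3, 183 and 179 (exon 6-7 knockout). Those of the exon 7 mice came to 84.7, 87.8 and 89.4 without the deletion and 82.2, 85.4 and 81.7 with it. The lines parted again and the genotypes did not.

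Ndufs1, the largest nuclear core subunit, carries several iron-sulfur clusters. Its gene (ENSMUSG00000025968) lies on chromosome 1, 63143596 to 63176833, minus strand (mm10). The scaled FPKM of Ndufs1 in the exon 6-7 line was 57.8, 56.7 and 62.3 for wild types and 58.1, 56.9 and 63.1 for knockouts. The exon 7 line gave 70.8, 55.02 and 54.5 (wild type) and 67.04, 54.4 and 51.5 (knockout). Its 4 groups overlapped. Between the lines the overlap came from WT628 and KO969, the set A mice of the exon 7 line, which were the highest of all. The other exon 7 mice lay below all exon 6-7 mice. Ndufs8 binds iron-sulfur clusters on the way to ubiquinone. Ndufs8 measured 104, 95.01 and 84.7 scaled FPKM in wild types of the exon 6-7 line, and 87.3, 85.9 and 86.8 in their knockout counterparts. For the exon 7 line these values were 36.9, 38.95 and 40.8, then 33.9, 31.6 and 36.9. Its wild-type and knockout values overlapped in both lines, and every value of the exon 7 line was under every value of the other.

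Ndufs7 holds the last cluster before ubiquinone. Levels of Ndufs7 came to 218, 173 and 141 scaled FPKM (exon 6-7 wild type) and 176, 141 and 141 (exon 6-7 knockout). Those of the exon 7 mice came to 63.7, 52.1 and 51.4 without the deletion and 62.9, 52.5 and 56.8 with it. WT778 was the highest of the exon 6-7 mice and KO776 the next highest, both of set A. Ndufs3 is a structural core subunit without a cofactor. The scaled FPKM of Ndufs3 in the exon 6-7 line was 138, 132 and 121 for wild types and 122, 124 and 119 for knockouts. The exon 7 line gave 65.8, 66.9 and 60.6 (wild type) and 62.3, 56.04 and 62.6 (knockout). It overlapped between genotypes and not between lines.

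The first comparison asked how the subunits differ between knockout and wild-type mice of the exon 6-7 line. None of the 37 subunits passed the test (limma, Benjamini-Hochberg adjusted over all 14328 genes), where 0.0209% of all genes tested did. The estimates lay close to 0 and nearly all on one side: 36 of 37 were below 0, against 50.5% of all genes tested, with a median log2 fold change of −0.12 (all genes −0.0018). This corresponds to a ratio of 0.918 on the log2(scaled FPKM + 1) scale, which understates the change of low genes. One subunit, Ndufb9, had an unadjusted p under 0.05, where 4.09% of all genes did.

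Ndufb9 (ENSMUSG00000022354) lies on chromosome 15, 58933756 to 58939488, plus strand (mm10). It had 446, 470.3 and 430.5 scaled FPKM in wild types and 409, 402 and 390.0 in knockouts, all lower. The groups did not overlap, with means of 449 ± 20.1 and 400.3 ± 9.77 (SD, n = 3 each). The difference did not pass (log2 fold change −0.16, SE 0.0700, 95% interval −0.32 to −0.01, limma unadjusted p = 0.0384, adjusted p = 1, exact two-sided permutation p = 0.1, the smallest that 3 against 3 can give). Ndufa2, a thioredoxin-like accessory subunit of the matrix arm, had 270.2, 278 and 217 in wild types and 214, 223 and 197 in knockouts. WT865 lay within the knockout range, and the estimate was the farthest from 0 of the 37 (log2 fold change −0.27, SE 0.124, 95% interval −0.54 to 0.0066, limma unadjusted p = 0.0549). Ndufa13, known as GRIM-19, had 194, 172 and 143 in wild types and 161, 139.5 and 132 in knockouts, so that WT865 was below KO776 (log2 fold change −0.23, SE 0.110, 95% interval −0.47 to 0.017). Ndufs1 had the single estimate above 0, by 0.01 (95% interval −0.25 to 0.27).

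Groups did not overlap in 5 subunits, all with the knockouts lower, and in none were the knockouts all higher. Among all genes tested the shares were 6.29% lower and 4.97% higher. The 5 subunits were Ndufb9, Ndufb8 and Ndufb3 of the distal membrane arm, Ndufa8 of the proximal arm and Ndufa6 of the matrix arm, named here after their values were seen. By role the median log2 fold change was −0.12 for the core, −0.12 for the matrix arm, −0.16 for the proximal and −0.15 for the distal membrane arm. Ndufab1 was at −0.12 and Ndufa4 at −0.11. The intervals of 32 subunits stayed within 0.5 log2 units of 0 on both sides, and the widest, of Ndufs5, ran from −0.76 to 0.45.

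Differences between the mice of this line were shared by many subunits. The median deviation of the 37 from the mean of the line was 0.062, 0.14 and −0.053 in WT778, WT809 and WT865 and −0.061, −0.055 and −0.068 in KO776, KO777 and KO864. WT809 stood highest, with 34 of 37 subunits above the mean of the line, and WT865 lay just above the knockouts. Within set A the median over subunits was −0.17 and within set B −0.12. Markers of other cell types also differed between these mice. All 6 oligodendrocyte markers were below 0 in this knockout (median −0.38, none passed), with a summed level of 5069.9 to 6382 in wild-type and 4463 to 4612 scaled FPKM in knockout mice. All 6 choroid plexus markers were above 0 (median 1.503, none passed), with sums of 42.2 to 8612 and 6731 to 8412. Other lists were closer to 0, with medians of −0.0084 for hippocampal neurons, −0.053 for astrocytes, −0.14 for microglia, 0.059 for endothelium and 0.12 for neighbouring brain tissue, and none of their genes passed. No marker of the oligodendrocyte or choroid plexus list was at 0 in all mice of a group. WT865 had the lowest choroid plexus sum of the line, and the part of these cell types in the complex I values was not tested. In bulk tissue, fewer cells of a type and less RNA per cell cannot be told apart.

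The median over subunits stayed below 0 under all 25 alternative settings, from −0.18 to −0.041. It was rated as unchanged in 22 of them and moved toward 0 in the settings that follow. With quantile normalization the median over subunits was −0.041 with 29 below 0, with TPM it was −0.068 with 34 below 0, and with the trend on transcript length and GC content removed it was −0.05 with 32 below 0. Short transcripts of all genes leaned the same way. The median was −0.13 for the 13 subunits under 700 bases and −0.093 for all 869 genes of that length. It was −0.12 for the 13 subunits of 1100 bases or more beside 0.0065 for 12392 genes. That range is open-ended, with subunits up to 4371 bases and genes up to 123179, so it is not matched for length.

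The same comparison in the exon 7 line gave estimates on both sides of 0. No subunit passed the test, and none of all genes tested did (0%). Of the subunits 18 were below 0 (53.2% of all genes), with a median of 0.0033 (all genes −0.0082), and 1, Ndufab1, had an unadjusted p under 0.05 (3.5% of all genes). Knockouts were all higher in 3 subunits, Ndufab1, Ndufb2 and Ndufa11 (3.25% of all genes), and all lower in 1 (3.75%).

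Ndufab1 (ENSMUSG00000030869) lies on chromosome 7, 122085403 to 122101886, minus strand (mm10). It had 33.9, 36.3 and 36.3 scaled FPKM in wild types of the exon 7 line and 38.04, 53.5 and 51.7 in knockouts. KO969 lay just above the wild type and KO990 and KO994 farther up, with means of 35.5 ± 1.38 and 47.7 ± 8.45 (SD, n = 3 each). The difference did not pass (log2 fold change 0.40, SE 0.132, 95% interval 0.11 to 0.69, limma unadjusted p = 0.0109, adjusted p = 1, exact permutation p = 0.1). The pair of set A mice alone gave 0.16 and the set B mice 0.52. Of the 50-base stretches of the Ndufab1 transcript 12.3% occur elsewhere, mostly in the pseudogene Gm4459, which had 26.3 ± 4.75 scaled FPKM in wild types and 25.4 ± 3.34 in knockouts. The share of Ndufab1 in the sum of both was 57.6 ± 3.84% and 65.02 ± 4.14% (SD, n = 3 each).

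The other named estimates of this line were smaller. Ndufb2, a single-pass subunit of the distal arm, had 47.6, 49.7 and 44.5 in wild types and 55.3, 52.4 and 53.2 in knockouts (log2 fold change 0.18, SE 0.143, 95% interval −0.13 to 0.49). Ndufb6, its neighbour in role, had 37.5, 34.3 and 31.7 and 46.9, 35.5 and 36.1, with KO969 above the rest and the others overlapping (log2 fold change 0.18, SE 0.148, 95% interval −0.14 to 0.51). Below 0 lay the core subunits Ndufs8 (log2 fold change −0.18, SE 0.0889, 95% interval −0.38 to 0.011) and Ndufs3 (−0.094), with limma adjusted p = 1 for all 37 subunits. Of the 7 core subunits 6 were below 0 (median −0.07) and of the 9 matrix arm accessory subunits 1 was (median 0.021). The intervals of 33 subunits stayed within 0.5 log2 units of 0.

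**Figure D2:**
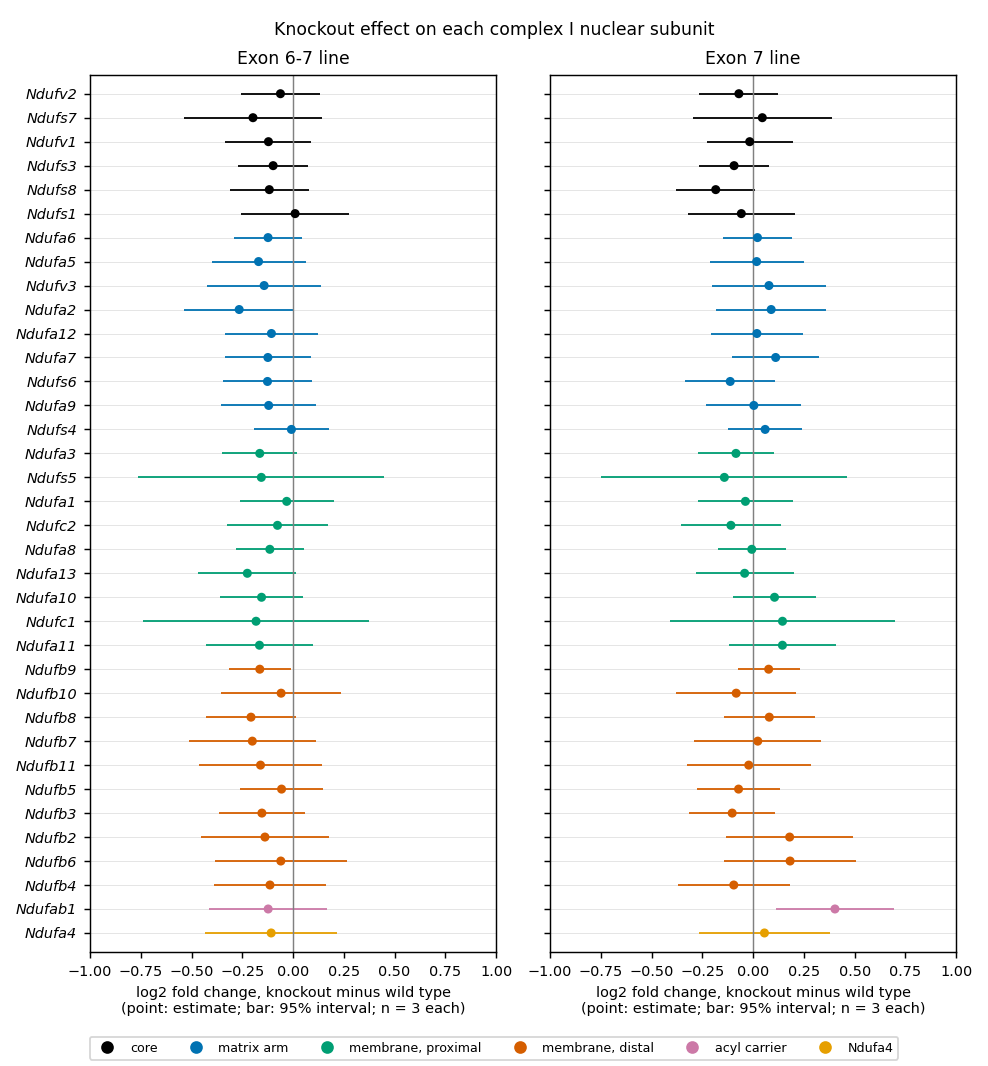
Log2 fold change of 36 subunits, knockout minus wild type, in the exon 6-7 line (left) and the exon 7 line (right), as points with 95% intervals from limma (3 mice per group) and coloured by role. Points on the left lie below 0 for all subunits shown but Ndufs1, with intervals that mostly cross 0, and points on the right lie on both sides, with Ndufab1 highest at 0.40.

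Whether the deletions differ in their effect was tested as the exon 7 effect minus the exon 6-7 effect. No subunit passed (0.014% of all genes tested did), 2 had an unadjusted p under 0.05 (3.98% of all genes), 7 were below 0 (51.2% of all genes), and the median was 0.12 (all genes −0.0058). The smallest unadjusted p values above 0 belonged to Ndufab1 (log2 fold change 0.53, SE 0.187, 95% interval 0.11 to 0.94, limma unadjusted p = 0.0167, exact permutation p = 0.04 over 400 relabellings within lines), Ndufb9 (0.24, 95% interval 0.023 to 0.46) and Ndufa2 (0.35, −0.031 to 0.74). Below 0 they belonged to Ndufs8 (−0.067), Ndufs1 (−0.068) and Ndufc2 (−0.033), and the limma adjusted p was 0.9997 for all 37. The limma adjusted p of Ndufab1 ran from 0.285 to 1 over 25 alternatives. Its permutation p assumes no knockout effect in either line, so it does not test equal effects as such. Ndufab1 was also picked for its small p.

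Nearly all subunits were lower in the exon 7 line than in the exon 6-7 line, in wild-type and in knockout mice alike. Between the wild types 35 of 37 passed as lower and none as higher, where 32.8% of all genes tested passed as lower and 33.6% as higher. The median log2 fold change was −1.28, a ratio of 0.413, while that of all genes was −0.0044. Between the knockouts 35 passed as lower and none as higher (29.9% and 31.1% of all genes), with a median of −1.16. The lines did not overlap within a genotype in 35 subunits, always with the exon 7 mice lower (34.4% of all genes in the wild types and 33.1% in the knockouts). The mean of the exon 6-7 wild type was at least 2 times that of the exon 7 wild type in 28 subunits and at least 3 times in 11. The labels do not say whether the lines were raised or sequenced together, so line, cohort and library processing cannot be told apart. Markers of cell types differed between the wild types of the lines too. Of the oligodendrocyte markers 4 of 6 were lower in the exon 7 line and none higher (median −0.70, summed level 5069.9 to 6382 against 4867 to 5126 scaled FPKM). Of the hippocampal neuron markers 7 of 10 were higher and 1 lower (median 0.36, 2124 to 2461 against 2607 to 2930.2), and of the astrocyte markers 3 of 6 were higher and 3 lower (961 to 1326 against 851 to 892). The counts were 1 higher and 3 lower of 6 for microglia (116 to 144 against 90.6 to 107), 3 higher and 1 lower of 4 for endothelium (49.6 to 59.4 against 49.96 to 61.1) and 3 higher and 1 lower of 5 for neighbouring tissue (57.2 to 94.98 against 53.5 to 62.6). Choroid plexus markers had 2 of 6 higher, with sums of 42.2 to 8612 against 1425 to 1728. No marker was at 0 in all mice of a group, and the part of these cell types in the line difference was not tested.

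Ndufa2 had the largest difference. Beside the exon 6-7 values above, it had 43.6, 40.8 and 45.4 scaled FPKM in the exon 7 wild type, means of 255 ± 33.1 and 43.3 ± 2.32 (SD, n = 3 each), and every exon 7 mouse was far below every exon 6-7 mouse (log2 fold change −2.53, SE 0.124, 95% interval −2.80 to −2.25, limma adjusted p = 6.22e-08). Between the knockouts it was lower too (log2 fold change −2.17, limma adjusted p = 2.36e-07, with 38.5, 48.3 and 52.5 in the exon 7 knockouts). Ndufb9 had 164, 183 and 163 in the exon 7 wild type and 180.1, 179 and 178 in its knockout, lower than in the exon 6-7 line in both genotypes (log2 fold change −1.40, limma adjusted p = 6.58e-08, and −1.16, limma adjusted p = 2.69e-07). Ndufa3, a small subunit of the proximal membrane arm, had 273, 312 and 265 in the exon 6-7 and 92.6, 99.9 and 99.8 in the exon 7 wild type (log2 fold change −1.53, limma adjusted p = 8.37e-08) and a log2 fold change of −1.45 between the knockouts.

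All role groups shared the direction. Of the core, 6 of 7 were lower in each genotype (median −1.004 in the wild types), and 9 of 9 in the matrix arm (median −1.24), 8 of 9 in the proximal membrane arm (−1.32) and 10 of 10 in the distal arm (−1.36). The share of all genes tested that passed as lower was 32.8% between the wild types and 29.9% between the knockouts. Within the 35 the log2 fold change between wild types ran from −2.53 for Ndufa2 to −0.53 for Ndufa9, a subunit beside the ubiquinone site with a Rossmann fold. The 2 that did not pass were Ndufs1 (log2 fold change 0.018, SE 0.121, 95% interval −0.25 to 0.28) and Ndufs5 (log2 fold change 0.09, SE 0.276, 95% interval −0.52 to 0.70), with limma adjusted p of 0.903 and 0.79. Between the knockouts they were at −0.05 and 0.10. The sign of both in the wild types depended on the scaling, since with FPKM as deposited Ndufs1 was at −0.13 and Ndufs5 at −0.065.

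Ndufs5 stood apart from the other subunits, and its values have to be read beside those of a near-identical copy. Ndufs5, a subunit with paired cysteine motifs on the intermembrane-space side of the membrane arm, lies on chromosome 4, 123712710 to 123718202, minus strand (mm10). BC002163 (ENSMUSG00000081824, chromosome 16, 42955631 to 42955949, plus strand) is annotated as a processed pseudogene and copies its coding sequence without introns. Of 319 aligned bases of the coding sequence 317 were identical, and 31.1% of all 50-base stretches of the Ndufs5 transcript also occur in the copy. The stretch below, bases 16 to 105 of the coding sequence in 1 exon, is shown because it holds both differences, given in capitals. It is from the GENCODE M21 transcripts, Ndufs5 at chr4:123715975-123716064 on the minus strand and BC002163 at chr16:42955646-42955735 on the plus strand, 5′ to 3′.
Ndufs5: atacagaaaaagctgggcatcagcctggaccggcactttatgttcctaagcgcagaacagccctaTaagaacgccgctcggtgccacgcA
BC002163: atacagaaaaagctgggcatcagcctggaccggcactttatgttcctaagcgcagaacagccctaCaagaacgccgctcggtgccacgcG

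How the level divided between these genes differed from mouse to mouse in the exon 6-7 line. Ndufs5 had 134, 159 and 266 scaled FPKM in its wild types and 116, 139 and 252 in its knockouts. BC002163 had 281, 329 and 15 and 248, 265 and 12.5. WT865 and KO864, 1 mouse of each genotype, had high Ndufs5 and a low copy, and in the other 4 mice the copy was the higher of the pair. Exon 7 wild types had 204, 182 and 184 for Ndufs5 and 4.02, 3.90 and 3.17 for the copy. Exon 7 knockouts had 186, 158 and 172 and 3.13, 2.30 and 2.92, so that the copy was low in all 6 mice of this line. The share of Ndufs5 in the sum of both was 32.2, 32.6 and 94.7% in the exon 6-7 wild type, 31.96, 34.4 and 95.3% in its knockout, and 97.9 to 98.6% over the exon 7 mice. Since the assignment of reads that fit both genes is not stated, the value of each is uncertain.

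The sum of Ndufs5 and BC002163, taken after their values were seen, did separate the lines. It was 281 to 488 in the exon 6-7 and 186 to 208 scaled FPKM in the exon 7 wild type, and 264 to 403 and 161 to 189 in the knockouts, with no overlap in either genotype. The ratio of the means was 2.04 in the wild types and 1.97 in the knockouts (exact two-sided permutation p = 0.1 each, the smallest 3 against 3 can give). Taken alone, Ndufs5 had ratios of 0.981 and 0.982, and the median of the 37 subunits was 2.50 in the wild types and 2.24 in the knockouts. Since FPKM divides by each gene's own length, the sum is not a sum of reads. WT865 had the lowest sum of the exon 6-7 wild type and KO864 the lowest of its knockout.

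**Figure D3:**
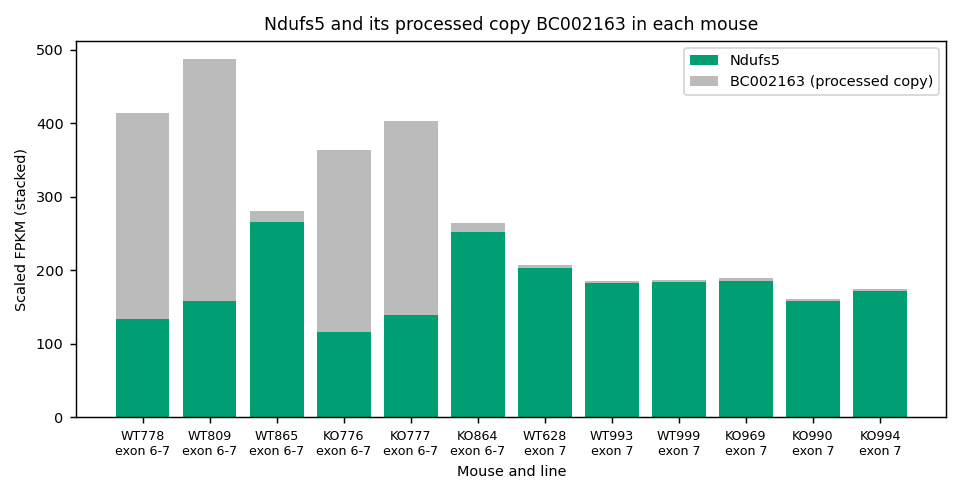
Stacked bars of scaled FPKM for Ndufs5 (green) and its processed copy BC002163 (grey) in each of the 12 mice. The grey part is tall in WT778, WT809, KO776 and KO777, between 248 and 329, and at most 15 in the other 8 mice.

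Other subunits also share sequence with processed copies, and none of those named here showed a shift as large. Of the 37, 21 shared no 50-base stretch with another transcript and 8 shared over 10%, 5 of these with a copy at a mean of 1 FPKM or more. Ndufa12, an accessory subunit of the matrix arm, shared 26.2% with Gm15920, which was above it. In the wild types the copy was at 202 ± 14.9 and 114 ± 14.1 and Ndufa12 at 166 ± 15.6 and 81.5 ± 5.75 (SD, n = 3 each). The share of Ndufa12 in the sum of both still varied between mice, from 34.5% in KO969 to 49.6% in KO990. It was lowest in the set A mouse of each group, which was seen afterwards and not tested. Ndufs3 shared 35.8%, nearly all with Gm12251, and made up 78.4 ± 0.699% and 83.3 ± 1.43% of the sum of both in the wild types. Ndufs6, which binds zinc in the matrix arm, shared 14.6% with Ndufs6b and made up 72.4 ± 0.495% and 82.6 ± 4.03%. For these 3 pairs and for Ndufab1 with Gm4459, the sum of subunit and copy was lower in all exon 7 mice than in all exon 6-7 mice of the same genotype, with ratios of means from 1.78 to 2.66.

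Transcript length moved with the line difference, and complex I transcripts are short. The reference transcripts of the subunits had a median length of 875 bases (419 to 4371), against 2858 for the genes tested. Across all genes the log2 fold change between the wild types rose with length (Spearman's rho 0.663 over 14168 genes), and across the 37 subunits the same correlation was 0.269. Both are across genes of the same libraries and are given as descriptions. Of the 13 subunits under 700 bases the median was −1.31, beside −0.87 for the 869 genes of that length, 55.2% of which passed as lower. Of the 13 subunits of 1100 bases or more the median was −1.01, beside 0.08 for 12392 genes, 28.0% of them lower. This last range has no upper bound. Its subunits end at 4371 bases and its genes at 123179, so they are not matched for length. Among the long ones were Ndufs1 (2661 bases), which did not pass, and Ndufc1 (1249 bases), which was lower by a log2 fold change of −2.38.

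With the trend of each library on length and GC content removed, fewer subunits passed as lower and their median was nearer 0, though not every estimate was. In the wild types 24 subunits were lower and 1 higher, with a median of −0.33, where 22.9% of 14168 genes were lower and 21.7% higher. In the knockouts 26 were lower and 1 higher (median −0.37), where 19.8% of genes were lower. Ndufa2 (−1.56, limma adjusted p = 9.18e-07) and Ndufc1 (−1.90, limma adjusted p = 9.37e-05) were lower in the wild types. So were Ndufb2 (−2.39, limma adjusted p = 5.46e-07) and Ndufab1 (−1.75, limma adjusted p = 6.99e-06), with reference transcripts of 4371 and 3479 bases. Their estimates were farther from 0 than without the correction (−1.73 and −1.38). Whether the libraries hold these long isoforms was not tested. The subunit that passed as higher was Ndufs5, at 0.09 without the correction (0.92, limma adjusted p = 0.0195 in the wild types and 0.83, limma adjusted p = 0.0345 in the knockouts). Core subunits Ndufs3 (−0.08, limma adjusted p = 0.524), Ndufs8 (−0.13, limma adjusted p = 0.282) and Ndufs7 (−0.33, limma adjusted p = 0.171) no longer passed in the wild types, and Ndufv1 and Ndufv2 still did. The correction uses 1 reference length per gene, while the isoform a library holds may differ.

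**Figure D4:**
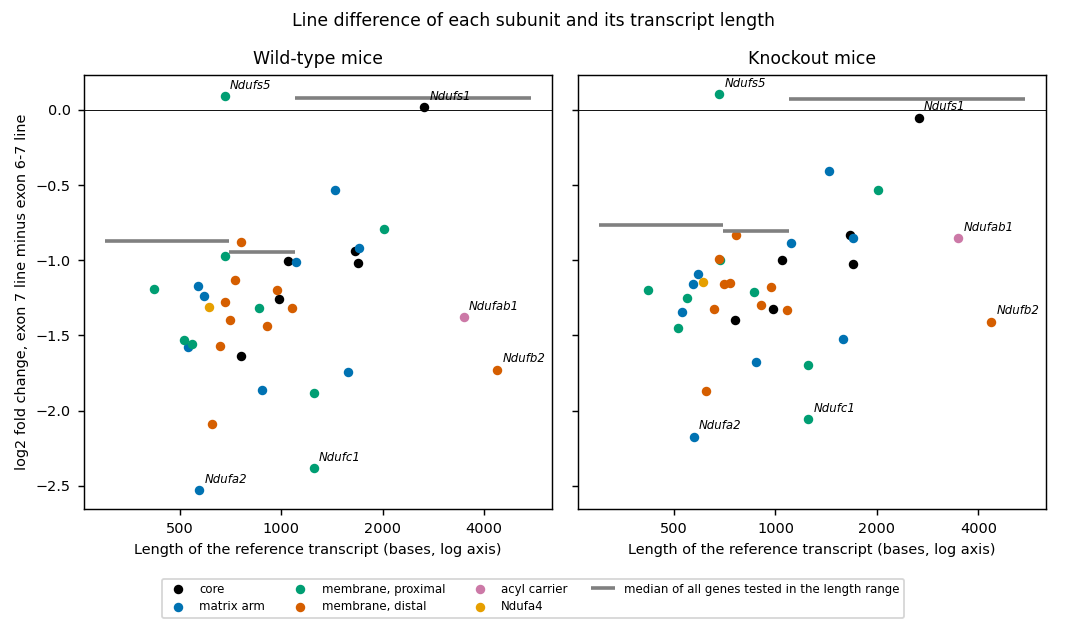
Log2 fold change of 36 subunits between the lines (exon 7 minus exon 6-7) against the length of its reference transcript on a log axis, in wild-type (left) and knockout mice (right), coloured by role. Grey bars give the median of all genes tested under 700 bases, from 700 to under 1100 and from 1100 up, at −0.87, −0.94 and 0.08 in the wild types, where Ndufa2 lies lowest at −2.53 and Ndufs5 and Ndufs1 lie near 0.

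All 7 mt-Nd genes, the subunits that the mitochondrial genome encodes, were above 0 between the wild types (median 0.53) and 3 passed as higher, where 33.6% of all genes tested did: mt-Nd5 (2.10, limma adjusted p = 1.29e-07), mt-Nd1 (0.71, limma adjusted p = 0.000135) and mt-Nd2 (1.08, limma adjusted p = 0.000203). Between the knockouts 4 passed as higher (median 0.71), where 31.1% of all genes tested did. The median differed by library set. It was 0.95 in set A and 0.32 in set B between the wild types, and 1.15 and 0.65 between the knockouts. The summed level of the 7 was 13670.3 to 14594 scaled FPKM in the exon 6-7 and 21829 to 34441 in the exon 7 wild type, while that of the 37 nuclear subunits was 6637 to 7484 and 2802 to 2941. Within the lines none of the 7 passed between genotypes. Mitochondrial transcripts as a whole made up 6.22 to 7.39% of all FPKM per mouse where the exon 6-7 line was measured and 10.3 to 14.3% where the exon 7 line was, with KO776 highest in the former and KO969 in the latter, both of set A.

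Assembly factors, which build complex I and leave the finished enzyme, were lower in the exon 7 line in part. Of 17 measured, 12 passed as lower in the exon 7 wild type and none as higher, where 32.8% of all genes passed as lower (median −0.60). In its knockout 11 passed as lower (median −0.59), where 29.9% of all genes did. The smallest p belonged to Ndufaf8 (−1.41, limma adjusted p = 9.71e-07), Ndufaf3 (−1.47, limma adjusted p = 6.3e-06), Dmac1 (−1.14, limma adjusted p = 2.1e-05) and Ndufaf7 (−0.60, limma adjusted p = 9.05e-05). Between genotypes none passed, and Ndufaf2, an assembly factor that resembles the subunit Ndufa12, had an estimate of −0.30 in the exon 6-7 and −0.31 in the exon 7 line (limma adjusted p = 1 in both). Ndufaf2 had 38.98 to 43.8 scaled FPKM in wild types of the exon 6-7 line against 27.4 to 38.7 in knockouts, and 22.7 to 28.5 against 18.4 to 20.9 in the exon 7 line, with no overlap in either. It was named after its values were seen. Among all genes tested, knockouts were all lower in 6.29% in the exon 6-7 and 3.75% in the exon 7 line. Of the 17 assembly factors, 3 were all lower and 2 all higher in the exon 6-7 knockouts. In the exon 7 knockouts 1 was all lower. Of the other symbols outside the rule, Ndufa4l2 had 3.16 to 6.42 and 2.09 to 3.65 in the wild types and Ndufab1-ps at 16.4 to 18.7 and 4.62 to 6.76.

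Nuclear subunits of the other respiratory complexes were lower in the exon 7 line as well. Between the wild types 3 of 4 complex II genes were lower (median −0.95), 8 of 9 of complex III (−1.08), 10 of 10 of complex IV (−1.38) and 14 of 14 of complex V, the ATP synthase (−1.35), with none higher. Among all genes tested 32.8% passed as lower in this comparison and 33.6% as higher. Examples were Sdhb (−1.24, limma adjusted p = 1.2e-05), Uqcrq (−2.17, limma adjusted p = 4.45e-06), Cox5a (−1.58, limma adjusted p = 5.2e-08) and Atp5e (−2.30, limma adjusted p = 5.54e-08). Sdha, the flavoprotein of complex II, did not pass (−0.13, limma adjusted p = 0.348). Cytosolic ribosomal protein genes, which are also short and abundant, were lower in 74 of 78 and higher in 1, Rps3a1, with a median of −1.14. A difference between complex I and these lists was not tested.

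Within the exon 6-7 line no gene of complexes II to V passed between genotypes. The medians were −0.074, −0.11, −0.16 and −0.12 for complexes II, III, IV and V and −0.12 for the ribosomal proteins, where that of complex I was −0.12. All 4, 9 and 10 tested genes of complexes II, III and IV were below 0 and 13 of 14 of complex V, with Cox6a1 (−0.19) and Atp5l (−0.31) among those of smallest p (limma adjusted p = 1). Among the ribosomal proteins Rps3a1 alone passed, as higher (5.08, limma adjusted p = 1.94e-09). Sequence shared with copies was checked for the complex I subunits only, and not for Rps3a1. Since the assignment of reads that fit several places is not stated, its value is uncertain. Exon 7 line medians were −0.031, 0.038, 0.059 and 0.0083, with none passing. Regulators of mitochondrial gene expression were on both sides between the lines: 6 of 12 were higher and 2 lower in the exon 7 wild type, beside 33.6% and 32.8% of all genes (median 0.41). Gabpa, a subunit of the nuclear respiratory factor NRF2 (1.61, limma adjusted p = 4.41e-06), and the coactivators Ppargc1a (1.60, limma adjusted p = 2.51e-05) and Ppargc1b (1.52, limma adjusted p = 4.24e-06) were higher, and Polrmt, the mitochondrial RNA polymerase (−1.30, limma adjusted p = 4.22e-05), was lower. These regulator values are without the length and GC correction, and across all genes the line difference rose with transcript length (Spearman's rho 0.663). The part of length in them was not tested. None of the 12 passed between genotypes in either line.

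**Figure D5:**
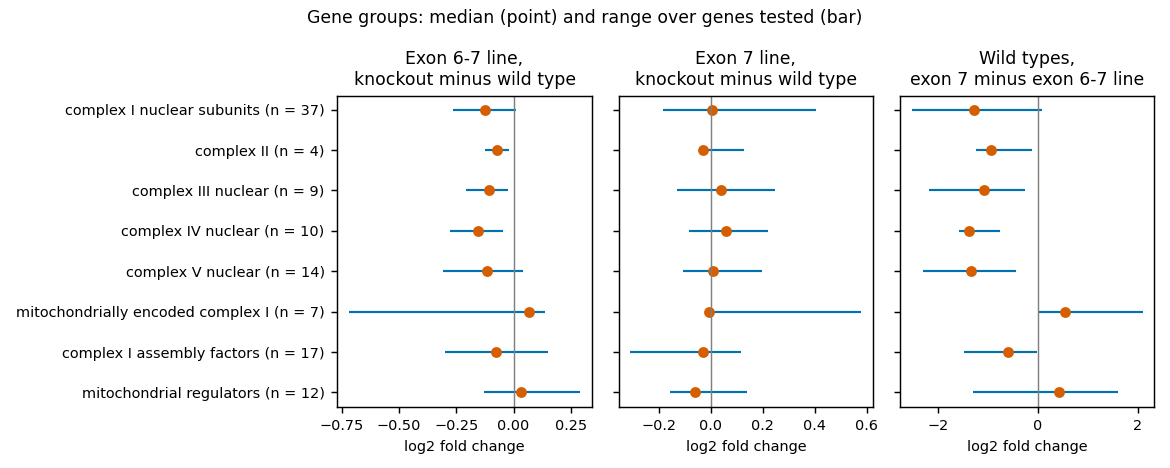
Median log2 fold change (point) and range over genes (bar) for the nuclear complex I subunits and related gene groups, in the exon 6-7 knockout comparison (left), the exon 7 knockout comparison (middle) and between the wild types of the lines (right), each panel with its own axis. In the right panel the nuclear subunits of complexes I to V have medians from −1.38 to −0.95, while the mitochondrially encoded subunits and the regulators lie above 0.

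Promoters of the subunits were read for motifs of factors known for respiratory chain genes. RefSeq promoters (GRCm38.p6, 250 bases before to 50 after the start) were matched by symbol for 33 of the 37 genes, with 35 promoters, and 32851 promoters of all genes served for comparison. The motif of NRF1, GCGC and TGCGC with any base between them, occurred on either strand in 8 of the 35 (22.9%) and in 4.60% of all promoters. These 8 belong to 7 genes, since both promoters of Ndufa5 overlap and hold the same site. The YY1 motif AAGATGGCG occurred in 5 (14.3% against 1.40%), the ETS motif CCGGAAG, bound by GABPA, in 4 (11.4% against 8.86%) and the ERR motif TNAAGGTCA in 1 (2.86% against 1.28%). Letters AAG end the ETS motif and begin the YY1 motif, and no subunit promoter held both. In all, 15 subunit genes had at least 1 of these motifs. Promoters were not matched for base composition, and a match is a description of these letters, not of binding.

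Below are 150 bases (120 before and 30 after the start) of 4 promoters, 5′ to 3′ on the strand of the gene, with motifs in capitals. They are shown because they hold the NRF1 motif, Ndufb4 in 2 copies with an ERR motif between them, and because Ndufs5 and Ndufb4 are the subunits whose level stood apart. All 4 are on the minus strand of GRCm38.p6, Ndufb4 at chr16:37654339-37654488, Ndufs5 at chr4:123718157-123718306, Ndufs6 at chr13:73328453-73328602 and Ndufa8 at chr2:36049309-36049458.
Ndufb4: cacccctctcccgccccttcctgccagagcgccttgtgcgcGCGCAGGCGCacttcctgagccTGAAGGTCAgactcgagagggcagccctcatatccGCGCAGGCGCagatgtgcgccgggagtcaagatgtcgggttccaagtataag
Ndufs5: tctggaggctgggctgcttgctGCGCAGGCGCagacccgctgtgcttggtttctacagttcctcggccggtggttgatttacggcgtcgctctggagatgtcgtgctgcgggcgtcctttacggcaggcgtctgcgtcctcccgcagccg
Ndufs6: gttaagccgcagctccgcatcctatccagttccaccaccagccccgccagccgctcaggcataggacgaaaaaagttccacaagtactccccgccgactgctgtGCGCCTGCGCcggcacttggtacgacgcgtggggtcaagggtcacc
Ndufa8: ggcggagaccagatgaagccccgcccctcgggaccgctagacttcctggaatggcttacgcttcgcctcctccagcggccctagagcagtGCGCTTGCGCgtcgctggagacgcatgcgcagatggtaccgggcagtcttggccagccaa

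The subunits with the NRF1 motif were Ndufa5, Ndufa6, Ndufa8, Ndufa11, Ndufb4, Ndufs5 and Ndufs6. Those with the YY1 motif were Ndufa9, Ndufc1, Ndufs4, Ndufs6 and Ndufs7. Since 35 of all 37 subunits were lower in the exon 7 line, the direction alone cannot separate subunits by motif. The size of the line difference was not compared between subunits with and without a motif. Ndufs5, which did not pass between the lines, holds the NRF1 motif. No promoter was matched for Ndufs1, which did not pass either.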

How the data were processed

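Hippocampal RNA of 12 mice was sequenced, and per the labels' title and source 3 mice fell into each of 4 groups. The authors deposited 1 table of FPKM per mouse by Ensembl gene, and read totals cannot be recovered from it. Per the submitters' processing notes, CASAVA, GSNAP, Cufflinks and mm10 were used. The sources used here do not give the strand setting, the annotation or the treatment of reads that fit several places. The gene IDs match Ensembl release 74.

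FPKM of each mouse was divided by a median-of-ratios factor over 12511 genes, and log2(scaled FPKM + 1) was fitted for the 14328 genes that averaged 1 FPKM or more, in 1 fit of all 4 groups with limma 3.58.1 (trend, R 4.3.3) and no covariate. Contrasts were the genotypes within each line, the difference of these effects, and line against line within a genotype. P-values were adjusted by Benjamini-Hochberg over all genes tested, with a threshold of 0.05, and the fit was tested on simulated data. Single values had an exact two-sided permutation test over mice (Python 3.11.15, scipy 1.17.1). Transcript lengths, coding sequences and pseudogene copies (shared stretches of 50 bases) came from GENCODE M21, and promoters from RefSeq (GRCm38.p6). With files of FPKM only, the number of mice limits the precision.

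Members and lists were chosen with earlier results of these data known. Per-mouse values are given for core subunits, for the 3 subunits of smallest p in each direction of a comparison, and for the 2 highest and 2 lowest levels. The values of 1 subunit are not reported here singly, in text or plots. Other subunits are given by role, and genes of other lists by at most 4 of smallest p per comparison. The lists were the other respiratory complexes, mitochondrially encoded subunits, assembly factors, regulators, ribosomal proteins and markers of neurons, glia, endothelium, choroid plexus and neighbouring tissue. Alternatives were other pseudocounts, filters and scalings, TPM, array weights, robust variance, a library set term, a length and GC correction, and each mouse left out.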

Additional observations from a re-analysis of the deposited data

How the results depend on the processing

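No mouse number occurs in more than 1 group and the labels do not say which mice are littermates, so no paired analysis was possible. No subunit passed between genotypes, or in the difference of the effects, under any of the 25 alternatives to the settings above, and the count of subunits lower in the exon 7 line ran from 24 to 35 in the wild types and from 26 to 36 in the knockouts. Leaving out small RNAs was an alternative chosen after seeing the data.

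The median over subunits for the exon 6-7 knockout was −0.041 with quantile normalization, −0.068 with TPM and −0.050 with the length and GC trend removed. For the difference of the effects it was 0.0040 with that trend removed. Between the lines it was −1.43 in the wild types and −1.31 in the knockouts with FPKM as deposited, −0.85 and −0.86 with quantile normalization, −1.13 and −1.03 with TPM, and −0.33 and −0.37 with the trend removed, where 1 subunit was higher in each genotype. With 1 mouse left out it ran from −1.33 to −1.22 in the wild types and from −1.22 to −1.16 in the knockouts. FPKM as deposited moved the median of all genes between the wild types to −0.13, and TPM to 0.13.

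Subunits that changed sign had estimates near 0, and the cause was not tested. Ndufs1 in the exon 6-7 knockout was −0.000343 with array weights and −0.018 with the length and GC trend removed, and ran from −0.034 to 0.048 with 1 mouse left out. In the difference of the effects, leaving out 1 mouse gave −0.13 to 0.010 for Ndufs8, −0.18 to 0.053 for Ndufs1 and −0.12 to 0.078 for Ndufc2. Between the wild types Ndufs1 was −0.13 with FPKM as deposited, −0.064 with array weights, −0.11 with the library set term and −0.11 with the trend removed, and ran from −0.10 to 0.085. Ndufs5 was −0.065 as deposited and −0.18 with the set term in the wild types, and −0.046 and −0.17 in the knockouts. With 1 mouse left out it ran from −0.12 to 0.37 and from −0.12 to 0.43, lowest without WT778 and KO776 and highest without WT865 and KO864.

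Depth is unknown for FPKM, so no counting limit can be given for the subunits. Half-widths of the 95% intervals between genotypes had a median of 0.23 log2 units, widest for Ndufs5 at 0.61.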
